A study of Mus musculus with 105 samples.

Results

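The 6 libraries described here are activated mouse CD4+ T cells given DRB with cycloheximide for 3 h, and the matched cells at 0 h of DRB. They were chosen by their labels, with no measured value, and make up 2 of the 35 groups of the series, each of which holds 3 RNA sequencing libraries, replicates 2, 3 and 4. The series follows mRNA loss in CD4+ T cells after inhibitors of transcription and of translation. All cells used here came from spleen and lymph nodes of 6-week-old C57BL/6J females and had been activated through CD3 and CD28 with coated beads. The groups were DRB at 0 h, DRB with cycloheximide at 1 and 3 h, DRB alone at 3 h, DRB with harringtonine at 3 h, triptolide at 0 h and triptolide with cycloheximide at 3 h. The doses were 65 µM DRB, 25 µM triptolide, 100 µg/ml cycloheximide and 2 µg/ml harringtonine. Total RNA was taken from equal numbers of cells and carried ERCC spike-ins, synthetic RNAs added in a known amount.

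An mRNA is lost after transcription stops because deadenylases shorten its tail, decapping and exonuclease complexes degrade it, and RNA-binding proteins recruit these enzymes to elements such as AU-rich sequences. Some of this decay is tied to translation: poorly decoded codons, premature stop codons and ribosome collisions all speed it. DRB inhibits the kinase that releases paused RNA polymerase II into elongation, triptolide blocks initiation, cycloheximide stops elongating ribosomes on the mRNA, and harringtonine stops them just after initiation. The comparison asks which mRNAs are still lost when ribosomes no longer move.

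The 3 libraries at 0 h held 3211759, 1206553 and 2420832 exon counts for replicates 2, 3 and 4, and the 3 libraries at 3 h of DRB with cycloheximide held 1389096, 551975 and 1839897. Across the series the range was 6300 to 6479221, with a median of 2135827, so replicate 3 at 3 h was among the shallow libraries. Of the reads in these 6 libraries, 80.5 to 93.8% were not assigned to a gene, most of them because they aligned to several places (56.8 to 86.1%). The cells expressed Cd28 and Zap70, which are not particular to CD4+ cells, and the level of Cd4 is not given here. Levels below are in CPM (counts scaled to a common library total). The summed level of the CD8 T cell markers was 7.46 to 13.6 CPM at 0 h and 8.15 to 13.7 CPM at 3 h. Summed markers of B cells spanned 41.4 to 181 CPM at 0 h and 50.7 to 205 CPM at 3 h. Myeloid markers summed to 4.97 to 7.16 and 7.25 to 12.5 CPM, with Cd14 and Lyz1 without a count in either group and Fcer1g, S100a8 and S100a9 without one at 3 h. Markers of NK cells summed to 5.80 to 8.72 and 7.25 to 9.24 CPM, and those of red cells to 0.826 to 14.9 and 1.81 to 14.4 CPM. The part of these other cells in the results was not tested.

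Change is given on a pair of scales. A spike-scaled change compares counts per ERCC count, and levels on this scale are given per 100000 ERCC counts. A relative change compares each gene with the typical mRNA of the same libraries (TMM factors). Changes are log2 values ± SE with 3 libraries per group. The SE is the size of the change divided by the square root of the test's F value, from the fit of all libraries. With few counts it is only approximate. A gene was called when its adjusted p from edgeR's quasi-likelihood test was under 0.05 over 10741 genes. Percent left is the spike-scaled change written as a share of the 0 h level. It is a net level: how complete the block of transcription was, and any RNA still made, were not tested. In these bulk samples, fewer cells and less RNA per cell cannot be told apart.

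Activated cells kept 62.0% of their exon signal per ERCC count over 3 h of DRB with cycloheximide. Without the spike-in of most counts this share was 45.0%, so it depends on the spike-ins used. All other values in this paragraph use the sum of all spike-ins. Exon counts per ERCC count were 19.5, 20.2 and 20.4 at 0 h and 11.3, 13.3 and 12.7 at 3 h of DRB with cycloheximide. The groups did not overlap: the mean was 12.4 ± 1.03 (SD, n = 3) at 3 h and 20.03 ± 0.499 (SD, n = 3) at 0 h. The exact two-sided permutation p was 0.1, the smallest that 3 against 3 libraries allow. At 1 h the 3 libraries stood at 25.7, 17.2 and 19.9, on both sides of the 0 h values, and the mean was 103% of that at 0 h (exact p = 0.9). With DRB alone for 3 h they stood at 11.3, 7.5 and 8.67, or 45.0% of 0 h. DRB with cycloheximide left 138% of the exon signal of DRB alone (exact p = 0.1), although the lowest library with cycloheximide, replicate 2, was almost level with replicate 2 of DRB alone.

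Intron signal fell further than exon signal. Intron counts per ERCC count were 17.9, 11.7 and 15.6 at 0 h and 5.28, 4.85 and 4.04 at 3 h of DRB with cycloheximide, so all 3 treated libraries lay below all 3 controls. The mean at 3 h was 31.6% of that at 0 h (exact p = 0.1). DRB alone gave 7.44, 4.44 and 3.89, which overlapped the values with cycloheximide: the latter were 93% of the former on average (exact p = 0.9). Counts over introns come largely from unspliced RNA.

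**Figure D1:**
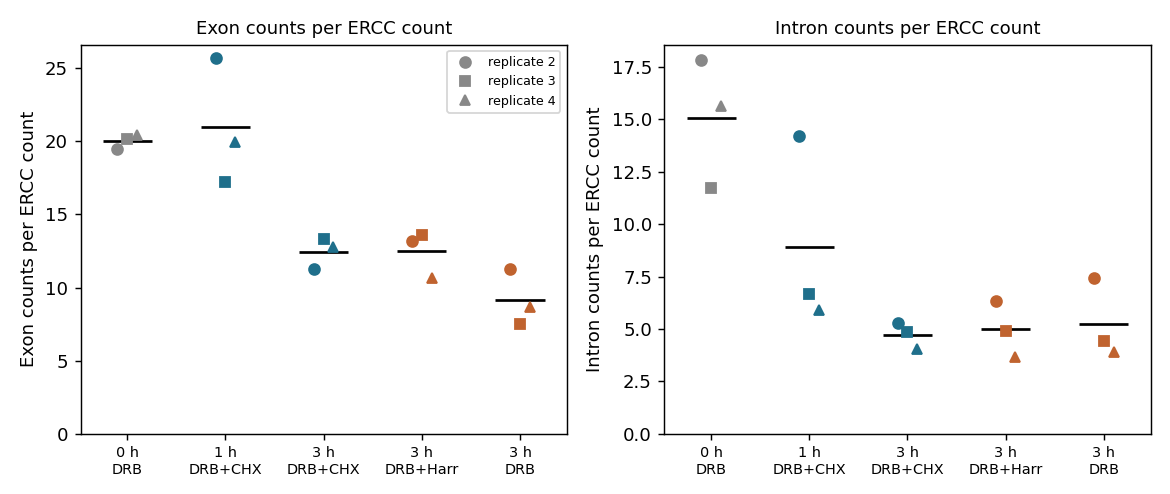
Exon counts (left) and intron counts (right) per ERCC count in each library of activated cells at 0 h of DRB, 1 and 3 h of DRB with cycloheximide (CHX), 3 h of DRB with harringtonine (Harr) and 3 h of DRB alone; points are replicates and lines are group means. Exon signal at 3 h of DRB with cycloheximide (11.3 to 13.3) lies below 0 h (19.5 to 20.4), and intron signal falls from 11.7 to 17.9 down to 4.04 to 5.28.

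On the spike scale 4939 of 10741 genes fell (46.0%) and 122 rose (1.14%). The median gene changed by -0.84, which leaves 55.7% of the 0 h level, and the middle 80% of genes lay between -1.91 and -0.15. At least 75% of the mRNA was lost from 848 called genes, and at least 50% from 3641. Without replicate 4, whose libraries were the deepest at 3 h, 1553 genes fell and 43 rose. With scaling factors from the median ratio of 30 single ERCC RNAs in place of their sum, 1845 fell, and the median gene changed by -0.50. Relative to the typical mRNA, 1086 genes were lower (10.1%) and 510 higher (4.75%). Without replicate 4 these were 331 and 128, and with the replicate number as a block they were 1688 and 1309.

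After 1 h of the same treatment few genes had passed the test: 13 were lower (0.121%) and 11 higher (0.102%) on the spike scale. Without replicate 2 none was lower and 1 higher, without replicate 4 none was called, and without replicate 3 there were 9 and 22. With the replicate number as a block 67 were lower and 32 higher. The comparisons of 1 h and 3 h with 0 h share the 3 libraries at 0 h.

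The 15 genes named for the largest falls had at least 10 CPM at 0 h, passed the test on both scales and had no overlap between groups. They kept 2.37 to 8.01% of their 0 h level. Gpr18, a G protein-coupled receptor of lymphocytes (chr14:121911253-121915781 on mm10, minus strand), stood at 54.0, 90.3 and 76.8 at 0 h and at 1.63, 2.41 and 1.38 after 3 h of DRB with cycloheximide. All treated libraries lay far below all controls. The change was -5.40 ± 0.62 (adjusted p = 1.3e-10), leaving 2.37%, on 234 counts at 0 h and 5 at 3 h.

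Chchd4, the receptor that imports and oxidises small proteins in the mitochondrial intermembrane space, stood at 65.5, 80.3 and 57.4 at 0 h and at 3.25, 0 and 3.46 at 3 h. It changed by -4.52 ± 0.42 (adjusted p = 8.1e-14), leaving 4.36%. At 1 h its 3 libraries already lay at 22.9, 18.9 and 18.2, below every control. The 1 h change of -1.75 ± 0.32 passed the test (adjusted p = 0.0011) but not without replicate 2 (0.0694) or replicate 4 (0.799).

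Tbcc, a cofactor of tubulin folding encoded by a single exon, went from 17, 61.9 and 32.9 to 0.813, 2.41 and 1.38. Its change was -4.65 ± 0.66 and left 3.98%, and the controls differed widely among themselves. Klf2, the zinc finger factor that keeps T cells quiescent and lets them leave lymph nodes, went from 58.8, 204 and 122 to 13, 7.23 and 7.62. The lowest control was again replicate 2, and it still lay well above the highest treated library. Klf2 changed by -3.69 ± 0.62 (adjusted p = 2.1e-06), leaving 7.73%.

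Zfp260, a zinc finger gene, went from 81.9, 129 and 121 to 5.69, 7.23 and 6.92, a change of -4.06 ± 0.31 with little spread in either group. Zfp169, of the same family, changed by -3.91 ± 0.40 and left 6.65%. Kpna2, an importin alpha that carries cargo into the nucleus, went from 20.6, 38.5 and 35.5 to 1.63, 0 and 3.46 (-3.75 ± 0.58). Mrpl44, of the large mitochondrial ribosomal subunit, changed by -3.82 ± 0.52, and Sephs2, which makes the selenium donor for selenoproteins, by -3.89 ± 0.55. Bcl2a1d, an anti-apoptotic BCL2 relative with near-identical copies in the genome, changed by -4.15 ± 0.57; reads shared with those copies make its level uncertain. Pdik1l and Amer1, a WNT pathway regulator, changed by -4.29 ± 0.48 and -3.64 ± 0.53.

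Gpr21 held 78 counts at 0 h and 2 at 3 h, so its spike-scaled ratio was 0.0285 with a 95% interval of 0.00339 to 0.106, which covers counting error only. Rpp25l, a relative of an RNase P subunit, changed by -3.86 ± 0.70 on 65 and 4 counts. Its relative change of -3.03 lost the call without replicate 4 (-2.59, adjusted p = 0.106).

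Rps27l, a p53-responsive relative of a ribosomal protein, was the 1 fall called lower than with DRB alone, the opposite direction to most genes. It stood at 72.2, 125 and 60.8 at 0 h, at 5.69, 4.82 and 8.31 with DRB and cycloheximide, and at 14.1, 18.6 and 12.3 with DRB alone. Every library with cycloheximide lay below every library without it. The difference of -1.15 ± 0.44 passed the test (adjusted p = 0.04) but was not called without replicate 2 (0.187), 3 (0.0859) or 4 (0.0961). None of the other 14 falls was called lower or higher than with DRB alone in the main fit. Amer1 (difference -1.13, adjusted p = 0.155) and Zfp169 (-0.80, 0.134) were called lower without replicate 3 (0.0313 and 0.0242). Among these 14, the changes under DRB alone were -4.09 for Gpr18, -4.13 for Chchd4, -4.36 for Zfp260 and -3.47 for Klf2, from the same 0 h libraries.

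**Figure D2:**
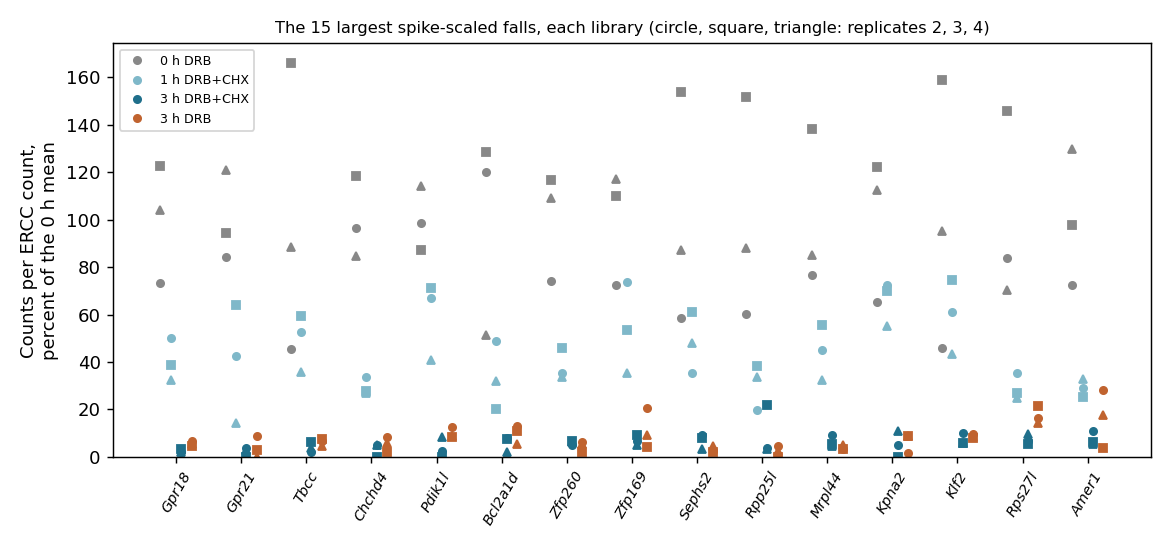
The 15 genes with the largest spike-scaled falls, each library as a percent of the gene's 0 h mean (linear axis), for 0 h DRB, 1 and 3 h of DRB with cycloheximide (CHX) and 3 h of DRB. Libraries at 3 h of DRB with cycloheximide lie near the bottom for every gene (2.37 to 8.01% left in the fit), next to those of DRB alone; those at 1 h mostly lie between, and overlap the controls for some genes such as Klf2.

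Few exons were found among the genes that fell most and also among those that rose most. The 15 falls had a median of 3 exons (range 1 to 11), and 10 of them had 3 or fewer. The 8 genes with the largest relative rises, 7 of them histones, had a median of 1 exon, and all 8 had 3 or fewer. Among the 491 genes that were called, had under 25% left and held at least 10 CPM at 0 h, the median was 4 exons and 39.7% had 3 or fewer. Among all 7763 genes with at least 10 CPM the median was 10 exons and 9.64% had 3 or fewer. Exon number was not used to choose the genes.

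The trend ran across the whole table. Without the histone genes, the median spike-scaled change was -1.50 for genes of 1 exon (113 genes), -1.80 for 2 exons (254), -1.28 for 3, -1.05 for 4 to 5, -0.89 for 6 to 10, -0.78 for 11 to 20 and -0.67 for over 20 exons (1191 genes). The share called lower was 79.5% at 2 exons and 38.7% above 20. Genes with over 20 exons were also more abundant at 0 h (median 108 CPM) than those with 2 (34.0 CPM). Across the 7763 genes Spearman's rho of the relative change with exon number was 0.276, as a description over genes that share the same 6 libraries. The same measure was 0.236 for DRB alone and 0.340 for triptolide with cycloheximide. For the spike-scaled difference between DRB with cycloheximide and DRB alone, rho with exon number was -0.05.

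**Figure D3:**
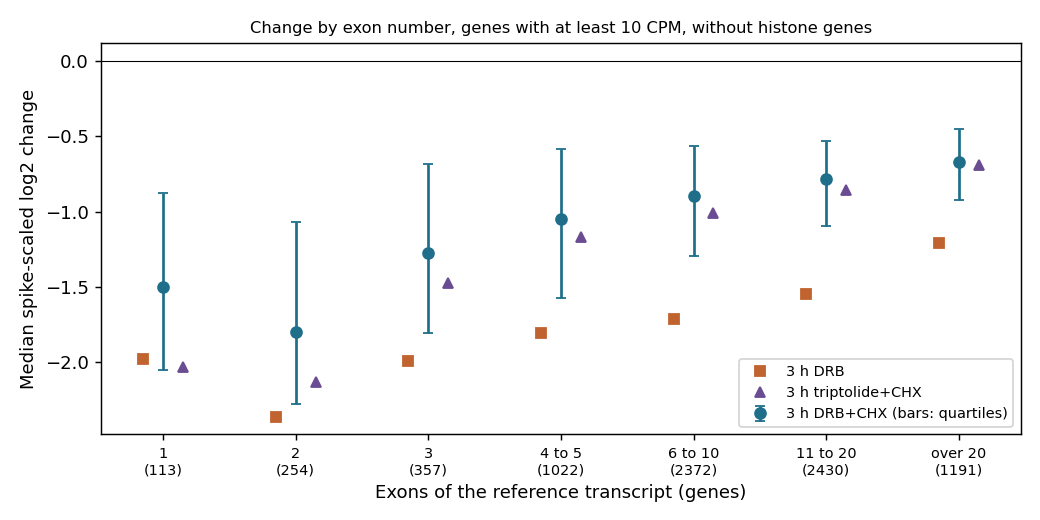
Median spike-scaled log2 change of genes with at least 10 CPM at 0 h, without histone genes, by the number of exons of the reference transcript; bars show quartiles for 3 h of DRB with cycloheximide, and the other symbols give medians for DRB alone and for triptolide with cycloheximide (CHX). The median with DRB and cycloheximide moves from -1.80 at 2 exons to -0.67 above 20.

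Immediate early genes are a class that T cells induce within minutes of stimulation, and the list used here also holds the quiescence factor Klf2. Klf2 is also on the list of naive and quiescence genes, and Btg2 on that list and those of p53 targets and destabilising regulators. Their falls therefore count in more than 1 list. Of the 36 tested members, 20 fell on the spike scale, against 46.0% of all genes, and 1 rose. Their median was -1.36, against -0.84 for all genes, and with DRB alone it was -1.74. After 3 h of triptolide with cycloheximide it was -2.78 with 35 of 36 lower, against -0.94 and 5954 of 10741 for all genes. Without replicate 4 the count of falls with DRB and cycloheximide was 12, and with median-ratio spike-in factors 11. Besides Klf2, Btg2, which recruits the CCR4-NOT deadenylase, went from 661, 803 and 615 to 102, 104 and 103. The treated libraries were nearly level with each other, and the change was -2.75 ± 0.35 (adjusted p = 5.7e-09). Nr4a1, an orphan nuclear receptor and marker of T cell receptor signalling, went from 3864, 2247 and 3496 to 662, 323 and 1175. It changed by -2.15 ± 0.55 (adjusted p = 0.0013), with replicate 3 lowest in both groups, and its call was lost without replicate 2 (-1.93, 0.0625). Nr4a3, the most abundant member, changed by -1.27 ± 0.57 (adjusted p = 0.061), and was called without replicate 3 (0.0306) and with the replicate number as a block (0.000119). Myc, whose product drives growth, went from 284, 286 and 228 to 59.4, 62.6 and 85.8, a change of -1.93 ± 0.41. Egr4 was the 1 member that rose, from 0.606, 1.67 and 3.38 to 8.95, 12 and 15.2 (2.70 ± 0.77, adjusted p = 0.0038), at a low level and named after its value was seen.

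Cytokines and chemokines had the lowest median of the lists described, at -1.91, with 15 of 25 called lower, against 46.0% of all genes, and none higher. Here the median with DRB alone, -1.85, was close to that with cycloheximide, and 2 of 25 genes were called higher with cycloheximide than without, against 29.6% of all genes. Without replicate 4, 9 were called lower, and with the block 21. Tnf, the inflammatory cytokine, went from 114, 161 and 97.9 at 0 h to 17.1, 38.5 and 22.2 with cycloheximide and stood at 30.8, 44.1 and 17.9 with DRB alone. The treated groups overlapped each other and lay below all controls. Its change was -2.35 ± 0.38 (adjusted p = 7.7e-07), and its difference from DRB alone -0.35 ± 0.38 (adjusted p = 0.54). Il2, the T cell growth factor, went from 169, 119 and 69.2 to 32.5, 16.9 and 26.3 (-2.17 ± 0.45). Il16, a chemoattractant for CD4+ cells, changed by -2.54 ± 0.39, and Tnfsf11, the ligand RANKL, by -1.89 ± 0.33. Ltb, which pairs with lymphotoxin alpha, behaved otherwise: it went from 413, 1258 and 792 to 111, 265 and 147 with cycloheximide and to 33.3, 58.6 and 25.7 with DRB alone. Every Ltb library with cycloheximide lay above every one without, a difference of 2.13 ± 0.57 (adjusted p = 0.0028; 0.115 without replicate 4). Its fall of -2.26 from 0 h was not called without replicate 4 (0.0618).

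Tnf and Il2 carry the classic AU-rich element in their 3′ UTRs, and the windows below show it because both mRNAs fell with ribosomes blocked. The capitals mark the first copy of the nonamer TTATTTATT in the 3′ UTR, searched on the transcript's strand in GENCODE M21 transcripts of mm10. Tnf (chr17:35199381-35202007, minus strand) holds 5 copies, the second of which overlaps the capitals and runs on into the lower case, and Il2 (chr3:37120523-37125959, minus strand) 1.
Tnf: tgcacttaTTATTTATTatttattt
Il2: atctgaaaTTATTTATTatattgaa
The nonamer was in the 3′ UTR of 791 of 10419 tested genes (7.59%). Over genes with at least 10 CPM, those with it had a median spike-scaled change of -0.92 (590 genes) and those without it -0.84 (7173 genes). With DRB alone the order was the other way round, at -1.42 and -1.61. Genes with 6 or more copies of the pentamer ATTTA, on the same strand and overlaps included, had a median of -0.89, against -0.78 for genes with none. With DRB alone these were -1.32 and -1.70. The presence of these letters does not show that a site is used.

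Genes of naive and quiescent T cells fell in 20 of 27 cases, against 46.0% of all genes, with a median of -1.17 against -0.84. The count was 8 without replicate 4 and 9 with median-ratio spike-in factors. Ccr7, the receptor that guides T cells into lymph nodes, went from 574, 970 and 838 to 78.9, 84.3 and 67.8. All treated libraries lay far below all controls, and the change was -3.37 ± 0.44 (adjusted p = 7.3e-09). With DRB alone Ccr7 stood at 62.6, 40.0 and 50.3, and the difference of 0.58 ± 0.42 was not called (adjusted p = 0.32). The abundant members Ets1 and Satb1, chromatin and transcription factors of T cells, kept 53.9 and 54.3%. Ets1 changed by -0.89 (adjusted p = 0.011; 0.279 without replicate 4) and Satb1 by -0.88 (0.068; 0.00472 with the block).

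Of 23 p53 target genes 17 fell (7 without replicate 4 and 9 with median-ratio spike-in factors), against 46.0% of all genes, with a median of -1.26 against -0.84. Plk3, a stress-activated kinase, went from 340, 318 and 232 to 63.4, 69.9 and 66.5 (-2.16 ± 0.36). Its level with DRB alone was 35.8, 24.8 and 22.4, below all libraries with cycloheximide, a difference of 1.25 ± 0.37 (adjusted p = 0.0061; 0.171 without replicate 4). The abundant Trp53inp1 changed by -1.04 ± 0.32, a call lost without replicate 4 (-0.87, 0.195).

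Of 23 genes of the NF-kB pathway and its feedback, 14 fell (6 without replicate 4), against 46.0% of all genes. Their median after 3 h of triptolide with cycloheximide was -1.64 with 22 of 23 lower, against -0.94 and 5954 of 10741 for all genes. With DRB and cycloheximide it was -0.99, close to the -0.84 of all genes, and with median-ratio spike-in factors 3 fell and 1 rose. Bcl10, the adaptor between the T cell receptor and NF-kB, went from 210, 365 and 205 to 78.9, 81.9 and 71.3, a change of -1.74 ± 0.32. With DRB alone Bcl10 was at 22.2, 17.9 and 19, well below, and the difference was 1.96 ± 0.34 (adjusted p = 5.6e-06). Nfkbiz, an atypical inhibitor that activates a subset of NF-kB genes, did not follow: it stood at 338, 407 and 323 at 0 h and 467, 414 and 764 at 3 h. All treated libraries lay above all controls. The spike-scaled change was 0.63 ± 0.34 (adjusted p = 0.11; 0.0436 with the block and 0.00541 without replicate 3), and the relative change of 1.47 ± 0.26 passed the test (adjusted p = 1.5e-05). Nfkb1, the most abundant member, kept 84.2% (-0.25 ± 0.35, adjusted p = 0.54).

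The numbered Zfp genes, mostly KRAB-type zinc finger repressors, were the longest list. On the spike scale 197 of 277 fell and 1 rose, against 46.0 and 1.14% of all genes, with a median of -1.51 (35% left) against -0.84. Relative to the typical mRNA 79 were lower and 3 higher, against 10.1 and 4.75% of all genes. On the spike scale 104 fell without replicate 4 and 118 with median-ratio spike-in factors. Zfp260 and Zfp169, given above, had the smallest p values. The abundant Zfp292 went from 528, 360 and 567 to 138, 164 and 177 (-1.61 ± 0.28), and Zfp106 changed by -0.80 ± 0.33, a call lost without replicate 2 (0.216) or 4 (0.206). The 1 that rose, Zfp651, held 3.03, 0 and 0.844 at 0 h and 20.3, 2.41 and 8.31 at 3 h. On the spike scale no Zfp gene was called higher without replicate 2 or 4. With DRB alone 250 of 277 fell, with a median of -2.17, and 59 were higher with cycloheximide than without, against 29.6% of all genes.

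At the other end, mRNAs of cytosolic ribosomal proteins were the list with the smallest loss among coding genes of the nucleus other than histones. Of 82 tested, 9 fell and none rose on the spike scale, with a median of -0.31 (80.6% left), which was 0.03 with median-ratio spike-in factors, where 2 fell. With the replicate number as a block 30 fell, and the counts without replicates 2, 3 and 4 were 4, 20 and 4. Rpsa, a protein of the small subunit, stood at 6995, 11180 and 7713 at 0 h and at 5477, 8535 and 7307 at 3 h. The groups overlapped, and the change was -0.28 ± 0.30 (adjusted p = 0.43). Rpl36al was an exception, from 406, 473 and 356 to 85.4, 157 and 68.5 (-2.04 ± 0.31, adjusted p = 3.2e-07), and Rps27l, given above, was another. Relative to the typical mRNA the median was 0.50, with 4 higher and 2 lower. The number higher was 54 with the block and ranged from 0 to 28 with 1 replicate left out, the most without replicate 3. With DRB alone their median was -0.25, so this list showed no larger loss without cycloheximide. Of the 13 mRNAs encoded in mitochondria, none passed the test on either scale. Their median was -0.63 with cycloheximide and -0.08 with DRB alone, and mt-Co1 stood at 5568, 5585 and 6429 at 0 h and 3102, 4466 and 5097 at 3 h (-0.47 ± 0.31, adjusted p = 0.19).

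Housekeeping lists lost less with cycloheximide than with DRB alone, as did all genes, whose medians were -0.84 and -1.54 with 46.0 and 78.2% called lower and 29.6% higher with cycloheximide than without. Proteasome subunits had medians of -0.96 and -2.16: 21 of 33 fell with cycloheximide and 33 of 33 with DRB alone, and 28 were called higher with cycloheximide than without it. Without replicate 4, 7 fell, and with median-ratio spike-in factors 8. Psmc1, an ATPase of the regulatory particle, went from 195, 241 and 157 at 0 h to 28.5, 48.2 and 42.2, and to 17.2, 9.65 and 14 with DRB alone. Both treated groups lay below all controls and did not overlap each other. The change with cycloheximide was -2.34 ± 0.34, and the difference from DRB alone 1.49 ± 0.36 (adjusted p = 0.0008; 0.0681 without replicate 4). Psma4, of the core particle, changed by -1.72 ± 0.25, and the abundant Psmb4 by -0.98 ± 0.34, a call lost without replicate 2 (0.102) or 4 (0.162).

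Ribosome biogenesis genes had medians of -0.76 with cycloheximide and -2.09 with DRB alone, and 26 of 42 were higher with cycloheximide. With cycloheximide 18 fell, a share near that of all genes, 28 with the block, 4 without replicate 4 and 5 with median-ratio spike-in factors. Ppan, which assembles the large subunit, went from 421, 485 and 356 to between 90.3 and 113 (-2.04 ± 0.36), and Wdr12 of the PeBoW complex changed by -1.67 ± 0.33. Npm1, nucleophosmin, stood at 1067, 793 and 1030 at 0 h, at 627, 732 and 708 with cycloheximide and at 427, 221 and 305 with DRB alone. It changed by -0.49 ± 0.26 (adjusted p = 0.11; 0.0218 with the block and 0.0191 without replicate 3), and by 1.11 ± 0.27 against DRB alone (adjusted p = 0.00067; 0.0965 without replicate 4). Aminoacyl-tRNA synthetases had medians of -0.56 and -1.81, with 12 of 37 called lower with cycloheximide (20 with the block, 3 without replicate 4, 2 with median-ratio spike-in factors) and 24 higher than with DRB alone. The mitochondrial enzyme genes Mars2 (-2.03 ± 0.36) and Pars2 (2 counts left of 49) were the exceptions with the smallest p. Nuclear-encoded respiratory chain subunits had medians of -0.67 and -1.44, with 31 of 77 lower (47 with the block, 8 without replicate 4, 11 with median-ratio spike-in factors) and 30 higher than with DRB alone. Their counts and medians were near those of all genes. Uqcrb of complex III (-2.58 ± 0.36) and Sdhb of complex II (-1.82 ± 0.32) fell, while the abundant Atp5b kept 78.9% (adjusted p = 0.23).

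The lists of RNA processing and decay are set against 46.0% of all genes lower with cycloheximide (median -0.84) and 78.2% with DRB alone (median -1.54). Of 47 genes of the mRNA decay machinery 26 fell with cycloheximide (5 without replicate 4, 9 with median-ratio spike-in factors) and 46 with DRB alone, with medians of -0.85 and -1.68. Exosc4, of the exosome ring, changed by -2.96 ± 0.54, and Dcp1a, a decapping activator, by -1.52 ± 0.33. Cnot1, the scaffold of the CCR4-NOT deadenylase, changed by -0.82 ± 0.30, a call lost without replicate 2 (0.132) or 4 (0.213). Of 19 regulators that destabilise mRNAs, 13 fell (2 without replicate 4, 4 with median-ratio spike-in factors), with a median of -1.14 against -1.37 with DRB alone. Of these 5 were higher with cycloheximide than without, a share below the 29.6% of all genes. Zc3h12d, a relative of regnase-1, went from 270, 407 and 358 to 96.8, 137 and 120 (-1.55 ± 0.34). Of 17 nonsense-mediated decay factors 7 fell (3 without replicate 4 or with median-ratio spike-in factors), with a median of -0.70 against -2.18 with DRB alone. Smg8 fell (-2.94 ± 0.43), while Smg6, the endonuclease, kept 106% (adjusted p = 0.85). Taf1d and Zfas1, host transcripts of small nucleolar RNAs, kept 91.7 and 65.6% with cycloheximide, and neither change was called (adjusted p = 0.74 and 0.18). Both fell with DRB alone, by 1.16 and 1.56. SR and hnRNP splicing regulators had medians of -0.75 and -1.36, with 15 of 32 lower (23 with the block, 2 without replicate 4, 1 with median-ratio spike-in factors), near the share of all genes. Of the 4 CLK kinases, which phosphorylate SR proteins, 3 fell (0 without replicate 4 or with median-ratio spike-in factors), with medians of -0.77 and -2.16. Clk3 stood at 164, 199 and 179 at 0 h, at 103, 147 and 125 with cycloheximide and at 36.3, 15.9 and 31.3 with DRB alone, a difference of 2.14 ± 0.36 (adjusted p = 2.5e-06). Its change from 0 h with cycloheximide was not called (-0.54, adjusted p = 0.17).

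The next 4 lists had shares called lower at or below the 46.0% of all genes. Targets of the stress factor ATF4 had medians of -0.81 and -1.78, with 11 of 24 lower (17 with the block, 5 without replicate 4, 7 with median-ratio spike-in factors). Atf4 changed by -1.90 ± 0.37 and Cebpg, its partner, by -2.47 ± 0.35. Glycolysis genes had medians of -0.66 and -1.36, with 9 of 21 lower (14 with the block, 4 without replicate 4, 3 with median-ratio spike-in factors). Slc2a1, the glucose carrier, went from 118, 98.7 and 149 to 17.1, 21.7 and 18.7 (-2.70 ± 0.46). Ldha changed by -0.86 ± 0.26 (0.13 without replicate 2). The T cell receptor and coreceptor genes had medians of -0.57 and -1.50, with 6 of 17 lower (13 with the block, 1 without replicate 4 or with median-ratio spike-in factors). Cd28 fell (-1.52 ± 0.28), and the kinase Zap70 kept 81.1% (adjusted p = 0.4). Cyclins and replication genes had medians of -0.95 and -1.83, with 12 of 28 lower (3 without replicate 4 or with median-ratio spike-in factors). Ccnt2, the cyclin of the kinase that DRB inhibits, changed by -1.79 ± 0.27.

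**Figure D4:**
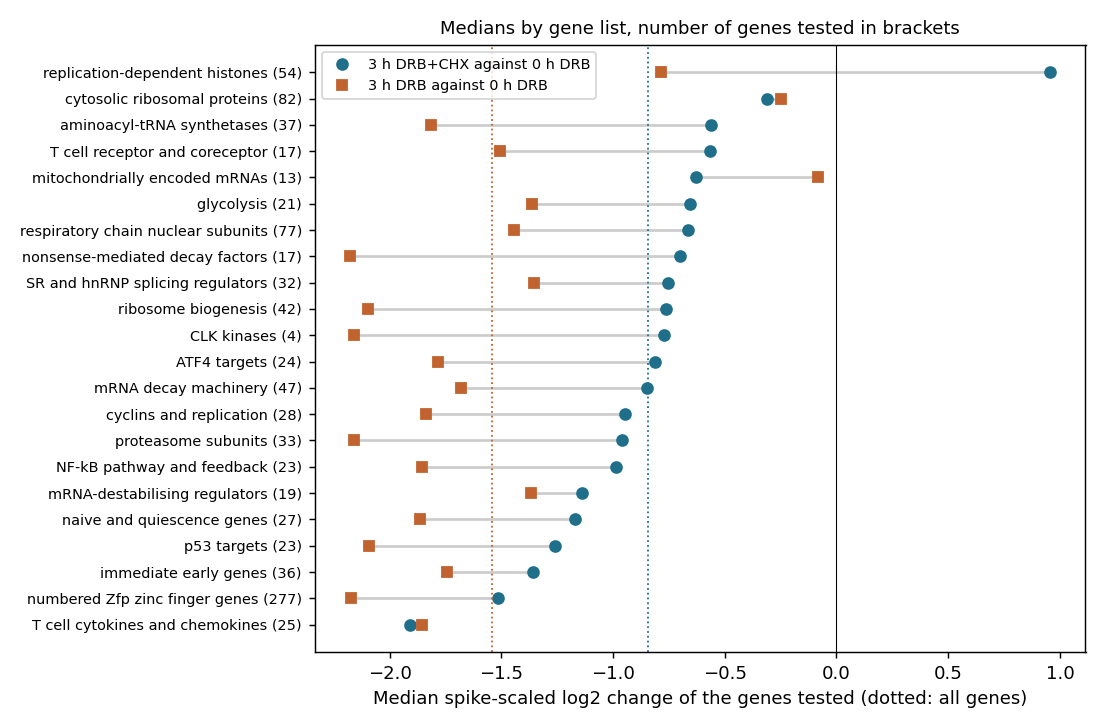
Median spike-scaled log2 change of each gene list after 3 h of DRB with cycloheximide (CHX, circles) and 3 h of DRB alone (squares), both against the same 0 h libraries; dotted lines are the medians of all genes (-0.84 and -1.54). Squares lie left of circles for all lists shown except ribosomal proteins, mitochondrially encoded mRNAs and cytokines, and histones are the one list with a positive median.

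Against DRB alone at 3 h, 3181 genes were higher with cycloheximide (29.6%) and 12 lower (0.112%) on the spike scale, and the median difference was 0.59. DRB alone left 34.4% of the median gene and called 8399 genes lower (78.2%). The 0 h libraries are shared between the falls with and without cycloheximide, and the 3 h libraries with cycloheximide between the fall and this difference. Without replicate 4 the number higher was 1020. The 8 genes named for the largest differences were partly lost with ribosomes blocked and nearly lost without. They were chosen among genes called higher with no overlap between these treatments, so their separation below follows from the choice. Ngdn, a nucleolar protein of small-subunit assembly, stood at 135, 196 and 127 at 0 h, at 64.3, 116 and 56.1 with cycloheximide and at 6.56, 4.83 and 2.80 with DRB alone. All libraries with cycloheximide lay far above all without, a difference of 3.97 ± 0.41 (adjusted p = 3.8e-12). Plrg1, of the PRP19 spliceosome complex, stood at 146, 228 and 149, then 67.5, 132 and 65.8, and 7.06, 10.3 and 7.27 (3.38 ± 0.37). Cyb561d2, a transmembrane ferrireductase, stood at 21.8, 25.1 and 38.0, then 13, 19.3 and 6.23, and 1.01, 0.690 and 0 (4.11 ± 0.67).

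The other 5 were Zfp157 (3.79 ± 0.45), Trib3, a pseudokinase induced by ATF4 (3.69 ± 0.69), Rps19bp1 (3.58 ± 0.62), Gtf3c5, of the RNA polymerase III factor TFIIIC (3.50 ± 0.52), and Qrsl1, a subunit of the mitochondrial amidotransferase (3.44 ± 0.48). All 8 differences kept their call with each replicate left out. These genes had a median of 8 exons, and 1 of 8 had 3 or fewer. With DRB and cycloheximide the 8 kept 27.2 (Trib3) to 56.4% (Gtf3c5) of 0 h, and all but Gtf3c5 lay below the 55.7% of the median gene. Of the 7 whose fall from 0 h was called on the spike scale, all lost the call without replicate 4 (adjusted p from 0.0698 for Trib3 to 0.456 for Cyb561d2), and Ngdn (0.107), Qrsl1 (0.104) and Plrg1 (0.0705) also without replicate 2. Gtf3c5 was not called (adjusted p = 0.067; 0.026 with the block).

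Replication-dependent histone genes went the other way. Their mRNAs end in a stem-loop instead of a poly(A) tail and are degraded by a pathway coupled to translation. The part of that pathway in the values below was not tested. Of 54 histone genes tested, 22 rose and none fell on the spike scale, against 1.14 and 46.0% of all genes, and their median was 0.96 (194% of 0 h). Relative to the typical mRNA 36 rose, with a median of 1.79. The spike-scaled counts without replicates 2, 3 and 4 were 12, 24 and 8, with 1 called lower without replicate 2, and 31 rose with the block. With DRB alone 17 fell and 1 rose, against 78.2 and 1.41% of all genes (median -0.79), and 39 of 54 were higher with cycloheximide than without. By class the median was 1.25 for 5 linker H1 genes, 0.76 for 13 H2A, 0.48 for 13 H2B, 1.27 for 10 H3 and 0.98 for 13 H4 genes. Many of these genes are near-identical, so reads of one copy may be counted for another or dropped as aligned to several places.

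Hist1h1a, a linker histone, stood at 32.1, 51.9 and 25.3 at 0 h, 91.5, 86.3 and 84.6 at 1 h and 173, 342 and 120 at 3 h of DRB with cycloheximide. Every 1 h library lay above every control, and every 3 h library above every 1 h one. The 1 h change was not called (1.31, adjusted p = 0.3; 0.00176 with the block). It rose by 2.55 ± 0.43 on the spike scale (adjusted p = 2e-06), while DRB alone gave 42.9, 82.7 and 17.3. Hist1h3a went from 21.8, 71.9 and 28.7 to 210, 306 and 125 (2.45 ± 0.46), with no overlap. Hist1h4i, with the smallest p of the list, went from 12.7, 10.0 and 11 to 169, 149 and 109 (3.62 ± 0.44, adjusted p = 8.7e-10). It also rose with DRB alone, to 40.9, 63.4 and 33. Hist1h1c, the most abundant, went from 316, 614 and 391 to 1044, 1178 and 1281 (1.41 ± 0.45) and Hist1h4c from 79.4, 216 and 106 to 314, 340 and 350 (1.35 ± 0.37). Both calls were lost without replicate 4 (adjusted p = 0.136 and 0.134). Hist1h4m (1.55 ± 0.52) lost its call without replicate 2 (0.24) or 4 (0.0519), and Hist1h4j (1.37 ± 0.43) without replicate 2 (0.259). Their relative rises of 2.39 and 2.24 were not called without replicate 2 either (0.126 and 0.0951). Hist1h3f was called on the relative scale (2.11 ± 0.59) but not on the spike scale (1.25 ± 0.59, adjusted p = 0.073; 0.00108 with the block), and its relative call was lost without replicate 4 (0.154). Hist2h4, also abundant, went from 156, 381 and 139 to 229, 231 and 170 (-0.09 ± 0.41), within the spread of the controls.

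The stem-loop letters of 5 of these genes are shown because most tested histone genes with an annotated 3′ UTR carry this element. The capitals mark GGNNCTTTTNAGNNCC, searched on the transcript's strand in the 3′ UTRs of GENCODE M21 on mm10.
Hist1h3a: ccaaaGGCTCTTTTCAGAGCCacaca
Hist1h1c: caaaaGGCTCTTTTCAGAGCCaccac
Hist1h1e: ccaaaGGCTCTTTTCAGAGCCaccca
Hist1h4c: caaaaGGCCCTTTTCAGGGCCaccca
Hist1h4j: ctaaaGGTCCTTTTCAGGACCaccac
Hist1h3a lies at chr13:23761853-23762386 (minus), Hist1h1c at chr13:23738808-23740367 (plus), Hist1h1e at chr13:23620629-23622558 (minus), Hist1h4c at chr13:23697635-23698454 (minus) and Hist1h4j at chr13:21735064-21735837 (plus). The motif was in 35 of the 43 tested histone genes with an annotated 3′ UTR, and in 45 of 10419 tested genes in all (0.432%). Among all annotated 3′ UTRs it was in 59 of 20785 (0.284%).

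**Figure D5:**
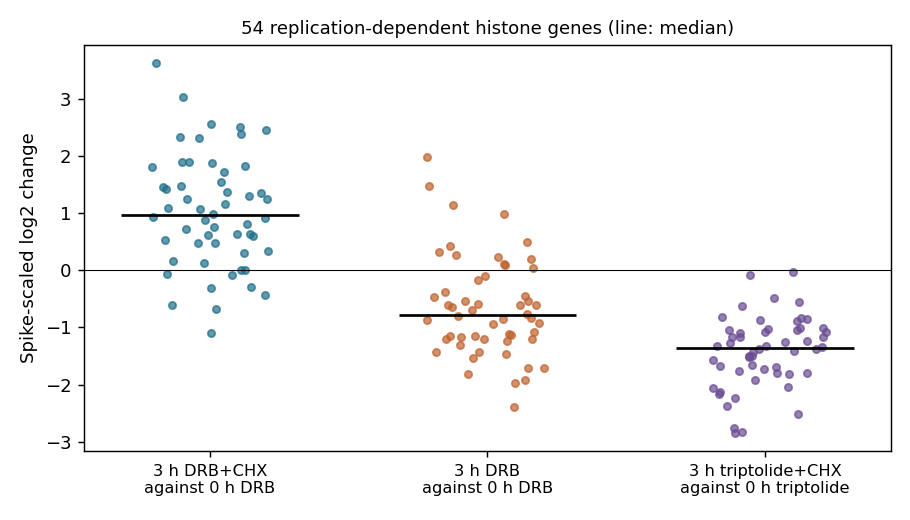
Spike-scaled log2 change of the 54 tested replication-dependent histone genes after 3 h of DRB with cycloheximide (CHX), 3 h of DRB alone and 3 h of triptolide with cycloheximide, each against its own 0 h group; points are genes, spread sideways for display, and lines are medians. The median is 0.96 with DRB and cycloheximide, -0.79 with DRB alone and -1.36 with triptolide and cycloheximide.

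Grcc10, a small gene of unclear function, was the 1 gene outside the histones among the 8 named for the largest relative rises. The choice of these 8 required a call and no overlap between groups on the relative scale. It stood at 73.4, 109 and 107 at 0 h and at 291, 328 and 341 at 3 h, with all treated libraries above all controls (1.74 ± 0.45, adjusted p = 0.0013; 0.0653 without replicate 4). With DRB alone it reached 250, 351 and 285, overlapping the libraries with cycloheximide, and its difference between the treatments was 0.12 ± 0.42.

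A further 14 genes had under 1 CPM at 0 h and at least 10 CPM after 3 h. Foxi1 (chr11:34204338-34208089, minus strand), a forkhead factor of ion-transporting epithelium, had no count at 0 h and 62.6, 14.5 and 109 at 3 h. It was at least 89.2-fold higher, taking 3 counts in the group as the lower limit at 0 h. Apoa1 (chr9:46228580-46230466), the main HDL apolipoprotein of liver and gut, had no count at 0 h and 19.5, 9.64 and 51.2 at 3 h, at least 37.8-fold higher. Slc2a2 (chr3:28697903-28731359), a glucose carrier of liver and pancreatic islets, had 1 count at 0 h and a ratio of 66.6 (95% interval 11.5 to 2680, counting error only), and its call was lost without replicate 4 (adjusted p = 0.121). The nearest upstream gene with at least 10 CPM on the same strand was searched for at any distance. It was Dock2 for Foxi1 (18.7 kb), Sik3 for Apoa1 (4.39 kb) and Tnik for Slc2a2 (22 kb). Other silent genes were not searched, so these distances have no background, and a link was not tested. Foxi1 and Apoa1 were present with DRB alone as well, Foxi1 at 182, 20.7 and 148 and Apoa1 at 41.4, 15.2 and 46.4. Replicate 3 was lowest in both treatments for both genes.

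Triptolide with cycloheximide gave a second comparison with none of the same libraries. Its exon signal at 3 h was 58.9% of that at its own 0 h and its intron signal 26.2% (exact p = 0.1 for both). Across 7638 genes with at least 10 CPM in both 0 h groups, Spearman's rho between the relative changes of the 2 arms was 0.815, as a description over genes. Of these genes 929 were lower with DRB and cycloheximide, 1416 with triptolide and cycloheximide, and 794 in both, which is 85.5% of the first list and 56.1% of the second. Over all 10741 genes, 10.1% were lower in the first arm and 15.8% in the second. Gpr18 changed by -4.56 relative to the typical mRNA in the DRB arm and -4.73 in the triptolide arm, and Chchd4 by -3.67 and -3.83.

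The difference between the arms itself was called for 16 genes lower (0.149%) and 57 higher (0.531%) with DRB on the relative scale. Without replicate 4 these were 1 and 11, without replicate 2 they were 2 and 22, and with the block 39 and 142. Histones and immediate early genes stood out in count: 15 of 54 and 10 of 36 were higher in the DRB arm, among them Egr1, Myc, Jun and Btg2. Myc and Btg2 lost the call without replicate 2 or 4. Irf1, an interferon-response factor, was at 1128, 1360 and 1098 at 0 h of DRB and 1120, 980 and 1855 at 3 h with cycloheximide. In the triptolide arm it went from 1407, 1375 and 1102 to 77.4, 95.6 and 70.6. The difference of the relative changes was 4.05 ± 0.39 (adjusted p = 1e-12). Hist1h1c went from 358, 559 and 374 to 82.4, 143 and 53.3 in the triptolide arm, where it rose in the DRB arm. The largest differences in the other direction were Galnt4 (-2.10 ± 0.56), Gtf3c3 (-2.08 ± 0.35) and Casp8ap2 (-2.08 ± 0.45); of these only Gtf3c3 kept its call with each replicate left out.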

How the data were processed

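Mouse CD4+ T cell total RNA was sequenced with ERCC spike-ins. The submitters' processing notes name TopHat2 (2.0.13), Bowtie (1.1.1.0), HTSeq and the mm10 build. The authors deposited raw counts over exons, coding sequence, introns and spike-ins for 22322 genes (22124 with a symbol) and 92 ERCC RNAs. Exon counts were used, and in the 6 libraries they numbered 551975 to 3211759. filterByExpr kept 10741 genes, and all libraries of the series were fitted as 35 group means with edgeR 4.0.16 (robust quasi-likelihood F test, Benjamini-Hochberg adjustment, R 4.3.3), with TMM factors (relative) or summed ERCC counts as library sizes (spike-scaled). The labels call the replicates biological and tie no number to a mouse, so p values measure the spread between these samples. The numbers were taken to pair the libraries: same-numbered 0 h and 3 h libraries deviated together in all 3 pairs (correlations 0.224, 0.268 and 0.328). Other numbers did not (-0.205 to -0.0646). Deviations were taken from each group's own mean of 3 libraries, so these negative values follow from the positive ones and are not separate evidence. The fit without the block is the main one. No library was a copy of another (chi-square per degree of freedom 7.58 to 14.5). Group ratios were tested with exact permutations.

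The members and gene lists were chosen with earlier results of these data known. Named genes are the 15 largest falls called on both scales and the 8 largest called relative rises (both with at least 10 CPM at 0 h and no overlap). They include 3 genes near silent at 0 h and the 8 largest called rises against DRB alone (at least 10 CPM at 0 h, no overlap). Added to these were the 3 largest called differences each way between DRB and triptolide, and per list the 2 smallest p and 2 most abundant. Predicted genes and pseudogenes were left out. Il2, Egr1, Egr4, Zfp651 and Jun were named after their values were seen, and Myc and Cd69 as activation markers. Lower bounds use 3 counts per group as the floor. Transcripts were from GENCODE M21. On simulated data for this comparison on the relative scale, 33 of 100 genes changed 2-fold and 79 of 100 changed 4-fold were recovered. There were 5 false calls over 10741 genes. Each simulated gene had the spread typical of its level and not its own. The simulation held no replicate pairing and no noise in the spike-in totals. It therefore does not give the error of the relative or the spike-scaled calls in the real data. Alternatives were DESeq2 1.42.0, other scalings and filters, coding-sequence counts, the compared libraries alone, harringtonine, the block and each replicate left out. Figures used Python 3.11.15 and matplotlib 3.10.9.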

Additional observations from a re-analysis of the deposited data

Results flagged for a closer look

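For 19 named genes the change in the DRB arm differed from that in the triptolide arm by the interaction term of the fit (edgeR, adjusted p under 0.05). The 3 largest called differences each way were named by this same test, so their calls here follow from the choice. Over all 10741 genes 0.149% were called lower and 0.531% higher with DRB, and the named genes are a chosen set. The difference of relative changes, DRB with cycloheximide minus triptolide with cycloheximide, was 6.07 for Hist1h4i, 4.06 for Hist1h1e, 3.61 for Hist1h1c, 3.54 for Hist1h1a, 3.47 for Hist1h3a and 3.00 for Hist1h4c. It was 4.45 for Cish, 4.05 for Irf1, 3.49 for Grcc10, 3.22 for Cd69, 2.80 for Egr1, 2.29 for Nfkbiz, 2.13 for Myc and 1.60 for Btg2. It was -2.10 for Galnt4, -2.08 for Gtf3c3, -2.08 for Casp8ap2, -1.52 for Zfp260 and -1.51 for Zfp169. Hist1h4i, Hist1h1e, Irf1, Cd69, Egr1, Nfkbiz and Gtf3c3 kept the call with each replicate left out. The other 12 lost it without at least 1 of the replicates 2, 3 and 4, for example Galnt4 without replicate 2 (-0.98, adjusted p = 1) and Cish without replicate 4 (3.84, 0.0874).

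Cish, a feedback inhibitor of cytokine signalling, went from 203, 156 and 155 per 100000 ERCC counts to 198, 84.3 and 201 in the DRB arm and from 427, 142 and 113 to 20.2, 5.72 and 2.10 in the triptolide arm. Cd69, an early activation marker, went from 1557, 1131 and 1033 to 621, 655 and 903 in the DRB arm and from 1964, 1297 and 1187 to 95.3, 64.6 and 88.0 in the triptolide arm. Casp8ap2, a coactivator of histone gene transcription, went from 224, 184 and 199 to 114, 113 and 170 in the DRB arm, where its relative change was 0.22, and had a relative change of 2.30 in the triptolide arm.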

How the results depend on the processing

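Pairs are genes lower and higher. The relative change at 3 h (1086 and 510) gave 332 higher with DESeq2, 600 lower with coding-sequence counts, 1729 and 1250 with harringtonine, 323 higher by library size, 617 and 272 with only the libraries compared, 1688 and 1309 with the replicate block, and 129 higher scaled on mitochondrial mRNAs. Leaving out 1 replicate gave 331 to 814 lower and 128 to 546 higher. The spike-scaled change (4939 and 122) gave 1845 lower with median-ratio spike-in factors and 58 higher with at least 10 CPM. Leaving out 1 replicate gave 1553 to 5157 lower and 43 to 115 higher. At 1 h (13 and 11) TMM gave 71 and 30, no filter 8 and 24, only the libraries compared 0 and 0, and the replicate block 67 and 32. Leaving out 1 replicate gave 0 to 9 lower and 0 to 22 higher. Against DRB alone (12 and 3181) TMM gave 767 and 1126, only the libraries compared 0 and 2026, and the block 52 lower. Leaving out 1 replicate gave 0 to 43 lower and 1020 to 3539 higher. Between arms (16 and 57) no filter gave 102 higher, only the libraries compared 3 and 34, the block 39 and 142, and spike-in scaling 4 lower. Leaving out 1 replicate gave 1 to 11 lower and 11 to 71 higher.

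No named value changed sign after a call in these alternatives. Exon signal per ERCC count at 3 h was 45.0% of 0 h without the spike-in of most counts, against 62.0% with all. With 2 replicates a group the tests have fewer samples, and the cause of other differences was not tested. Of the spike-scaled changes from 0 h to 3 h printed for single genes, the replicate block changed no call other than those given beside it. The shallow replicate 3 at 3 h limits genes of low level: with 5 or fewer counts left, percent left is imprecise.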
